A study of Mus musculus with 9 samples.

Results

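The genes described here are the transcriptional coactivators Yap1 and Wwtr1 (the gene for TAZ), their DNA-binding partner Tead1, and 7 genes known as their targets or regulators, Ankrd1, Ctgf, Cyr61, Amotl2, Ajuba, Ptpn14 and Lats2. They were taken by gene name from a deposited table of 48230 usable genes, and all 10 had a row. RNA was sequenced from BeCon mouse ovarian tumor cells in 9 libraries. In 4 libraries the cells came from the ascites of B6 mice bearing BeCon tumors and given YKL-05-099, an inhibitor of the salt-inducible kinases. The cultured group was 1 library of BeCon cells grown in vitro, with no replicate, and the vehicle group was 4 libraries of ascites tumor cells from BeCon-bearing B6 mice given the vehicle control. Mouse cells had been sorted as viable, CD45-negative and MHC class I-positive. The sources used here give neither dose nor schedule, and no age of the mice. Nothing states whether the RNA of a library came from 1 animal or from several, and the p-values therefore reflect how far these libraries vary, which may be technical. Library names in the deposited table begin differently for treated and vehicle libraries, and what that prefix stands for and the treatment cannot be told apart.

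YAP and TAZ carry no DNA-binding domain of their own and act through TEAD transcription factors. The Hippo pathway restrains them: the kinases MST1 and MST2 with the adaptor SAV1 activate LATS1 and LATS2, which phosphorylate YAP and TAZ and hold them in the cytoplasm. Several target genes encode parts of this brake, LATS2, AMOTL2 and PTPN14 among them, so that the pathway feeds back on itself. In Drosophila, salt-inducible kinases are known to phosphorylate Salvador, the fly counterpart of SAV1. Protein, phosphorylation and cell location were not measured here, and the values below are transcript levels in FPKM (fragments scaled to transcript length and library size), a scale that allows levels to be compared between genes.

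The letters GGAATG, which TEAD factors bind, were searched on both strands of RefSeq promoter windows (GRCm38.p6, 250 bases before to 50 bases after each transcription start). Windows were found for 8 of the 10 genes, 10 windows in all, since Wwtr1 and Lats2 have 2 starts each. Ctgf and Tead1 had no window. Each of the 8 genes had a match in at least 1 window, and 9 of the 10 windows held one, where 14.7% of all 32851 windows did. Both Wwtr1 windows overlap and share a single match. The genes were chosen as known parts or targets of this pathway, so their share of matches is not independent of that choice. Ankrd1 had matches beginning at positions -210 and -123 relative to the start, and Ajuba at -186 and -164. The single match of Yap1 began at -141, that of Ptpn14 at -146, that of Cyr61 at -103 and that of Amotl2 at -65, while the Lats2 match began at base 5 after 1 of its starts. None of the 10 windows held the cAMP response element TGACGTCA, present in 1.79% of all windows, the AP-1 motif TGANTCA, in 7.81%, or a CArG box, in 1.63%. Only the full cAMP response element was searched, so shorter or altered forms of it were not counted and may be present. A match describes the letters and does not show that a factor was bound. The upstream 250 bases are printed for 5 genes that differ in the results below. Ajuba and Ptpn14 fell after treatment, Cyr61 and Amotl2 did not, and Ankrd1 stood apart in culture. All 5 hold a match, and any part of the matches in those results was not tested. Capitals mark GGAATG or its reverse complement.
Ajuba, chr14:54577662-54577911, minus strand: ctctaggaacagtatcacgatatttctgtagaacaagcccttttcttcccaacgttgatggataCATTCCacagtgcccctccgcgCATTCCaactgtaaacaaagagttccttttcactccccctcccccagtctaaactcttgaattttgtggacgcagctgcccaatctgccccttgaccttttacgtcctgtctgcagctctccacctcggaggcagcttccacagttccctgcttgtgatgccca
Ptpn14, chr1:189728018-189728267, plus strand: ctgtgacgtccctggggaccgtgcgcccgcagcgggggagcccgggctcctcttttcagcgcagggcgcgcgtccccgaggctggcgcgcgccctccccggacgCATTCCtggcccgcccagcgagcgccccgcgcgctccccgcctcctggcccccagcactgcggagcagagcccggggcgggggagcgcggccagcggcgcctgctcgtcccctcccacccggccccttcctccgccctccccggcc
Cyr61, chr3:145649986-145650235, minus strand: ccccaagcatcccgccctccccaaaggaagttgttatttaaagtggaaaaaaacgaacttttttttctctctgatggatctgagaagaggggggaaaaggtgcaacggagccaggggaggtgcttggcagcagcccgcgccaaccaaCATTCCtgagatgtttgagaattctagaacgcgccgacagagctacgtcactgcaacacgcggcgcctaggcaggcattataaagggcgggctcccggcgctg
Amotl2, chr9:102717554-102717803, plus strand: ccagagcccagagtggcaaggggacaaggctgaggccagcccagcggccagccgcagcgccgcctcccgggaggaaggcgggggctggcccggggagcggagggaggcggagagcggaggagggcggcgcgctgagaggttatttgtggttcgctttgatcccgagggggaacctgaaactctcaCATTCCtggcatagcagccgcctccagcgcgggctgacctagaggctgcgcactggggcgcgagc
Ankrd1, chr19:36119845-36120094, minus strand: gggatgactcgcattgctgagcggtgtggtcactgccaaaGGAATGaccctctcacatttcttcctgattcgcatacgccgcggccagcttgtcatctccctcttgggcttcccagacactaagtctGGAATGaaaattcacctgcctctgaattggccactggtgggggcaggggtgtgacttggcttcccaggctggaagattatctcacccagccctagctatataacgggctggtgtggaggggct

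**Figure D1:**
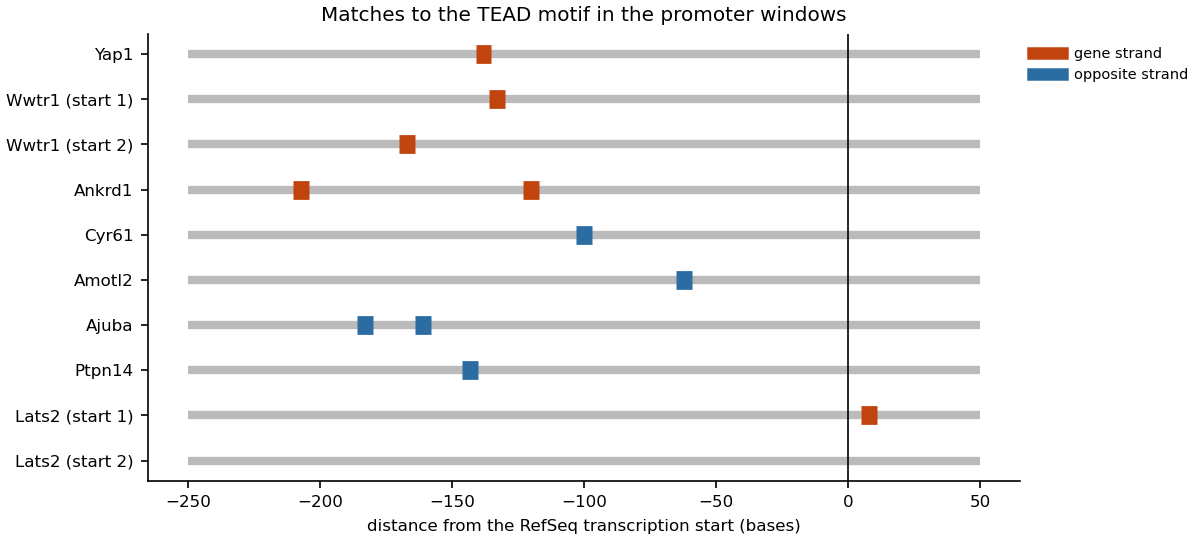
Position of matches to the TEAD motif in the RefSeq promoter windows of 8 genes, as distance in bases from the transcription start (vertical line). Each grey bar is 1 window of 300 bases, and red and blue marks are matches on the strand of the gene and on the opposite strand. Of the 10 windows, 9 hold a match, and all matches but that of Lats2 lie upstream.

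The first comparison asked how treatment of the mouse with YKL-05-099 changed these transcripts in the tumor cells. Of the 10 genes, 5 fell (Ctgf, Ajuba, Wwtr1, Ptpn14 and Tead1) and none rose, in limma fits across all genes at an adjusted p under 0.05. Over all 11788 genes tested, 15.1% were called lower and 28.0% higher, 43.2% in all. The median log2 fold change was -0.24 over the 10 genes and 0.05 over all genes tested. Values of the YKL-05-099 and vehicle libraries did not overlap for 4 of the 10 genes (Ctgf, Ajuba, Wwtr1 and Ptpn14), against 40.0% of all genes. The excess of higher over lower calls among all genes depended on scaling: 64.9% of calls were higher as deposited and 52.5% after median-of-ratios scaling, where the 10 genes had 5 lower and 0 higher calls.

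Libraries differed in transcripts listed as markers of cell types, some of which the cultured tumor cells also held. The summed level of 15 macrophage markers was 19.4 to 73.2 FPKM in YKL-05-099 libraries, 10.1 FPKM in culture and 137 to 296 FPKM in vehicle libraries, with 2 to 6, 1 and 9 to 12 markers at an FPKM of at least 1. For 15 pan-leukocyte markers the sums were 19.7 to 36.1, 13.7 and 51.03 to 98.9 FPKM, for 7 erythroid markers 1.45 to 92.8, 0.188 and 244 to 1487 FPKM, and for 12 fibroblast markers 556 to 635, 338 and 657 to 710 FPKM. Cultured tumor cells held the pan-leukocyte markers Cytip (5.67 FPKM), Ptpn6 (4.23 FPKM) and Arhgdib (1.98 FPKM), while Ptprc and Tyrobp were at 0 there. Cd68 (10.04 FPKM) made up nearly all of the macrophage sum in culture. These sums therefore do not measure leukocytes alone. Decorin (Dcn), which was not called, made up most of the fibroblast sum (463 to 544 FPKM in the mice), while 5 of the 6 tested fibroblast markers fell. Among these, Col1a2 was at 14.5% of its vehicle mean in treated libraries (2.86 ± 0.627 and 19.7 ± 5.27 FPKM), Col1a1 at 44.4% and Pdgfra at 49.1%. The cultured tumor cells held Dcn (243 FPKM), Col1a1 (32.2 FPKM, above every mouse library) and Pdgfra (10.5 FPKM), but little Col1a2 (0.0668 FPKM). Dcn, Col1a1 and Pdgfra are thus not markers of other cells only. The 10 endothelial markers summed to 5.97 to 7.67, 4.39 and 5.86 to 9.0 FPKM. Kdr (3.43 to 6.60 FPKM in the mice and 0.0711 FPKM in culture) and Pecam1 (1.16 to 1.91 FPKM in the mice) were detected and not called, Cldn5 was listed at 0 in every library, and Cdh5 reached at most 0.00632 FPKM. The 8 mesothelial markers summed to 1584 to 1622, 1050 and 1644 to 1704 FPKM, without overlap between the mouse groups, and included Upk3b at 548 to 633 FPKM in the mice. The 13 epithelial tumor markers, 4 of them also on the mesothelial list (Wt1, Krt19, Msln and Muc16), summed to 1144 to 1214, 1089 and 1186 to 1267 FPKM. Wt1 (501 to 565 FPKM in the mice) and Krt18 were abundant, whereas Pax8 reached at most 0.202 FPKM and Epcam at most 0.624 FPKM in any library. In bulk RNA, fewer cells of a type and less RNA per cell cannot be told apart. When the mean of the pan-leukocyte markers entered the fit as a covariate, 2 of the 10 genes (Ajuba and Ptpn14) were called, both lower, and 755 of all 11788 genes tested. That covariate, which includes Cytip, Ptpn6 and Arhgdib, did not overlap between the groups, and the standard errors of the 10 genes were 1.66 to 1.95 times as large. Beyond this fit, the part of other cells in the results was not tested.

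**Figure D2:**
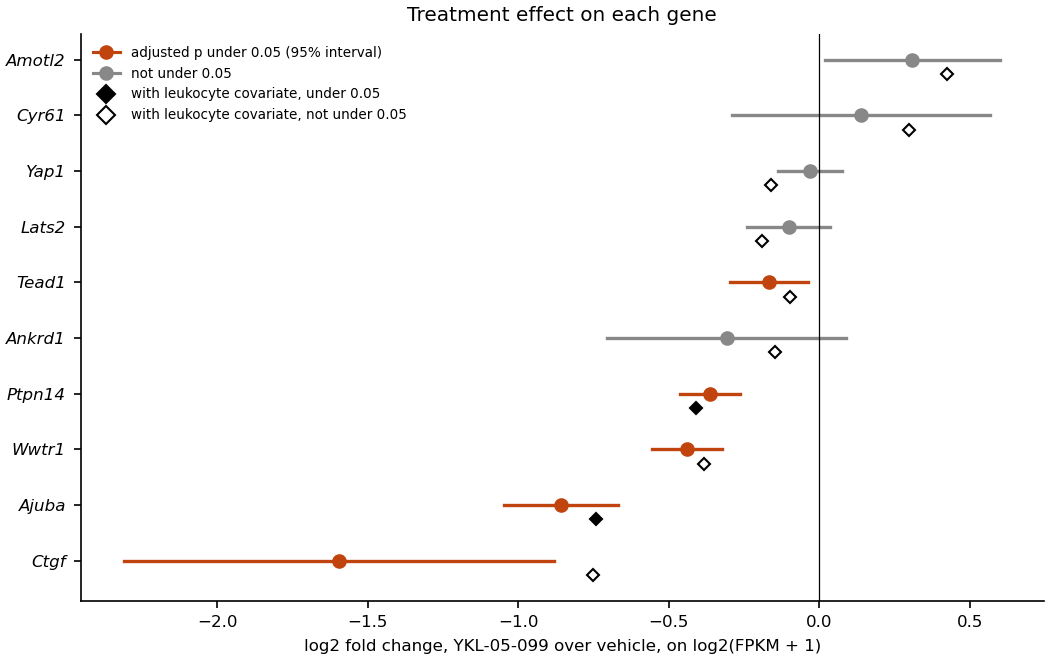
Log2 fold change of each gene, YKL-05-099 over vehicle on log2(FPKM + 1), with its 95% interval from limma (n = 4 each). Red circles passed an adjusted p of 0.05. Diamonds give the fold change with the pan-leukocyte covariate, filled where it passed. Ctgf, Ajuba, Wwtr1, Ptpn14 and Tead1 lie below 0, and with the covariate Ajuba and Ptpn14 still passed.

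Between the coactivators, TAZ transcripts fell and YAP transcripts were not called. Yap1 (chromosome 9, 7931999 to 8004596) had 34.8, 34.8, 35.6 and 37.6 FPKM in YKL-05-099 libraries, 33.5 FPKM in culture and 35.6, 34.5, 38.6 and 37.3 FPKM in vehicle libraries. The groups overlapped, with a log2 fold change of -0.03 and a 95% interval from -0.14 to 0.08 (SE 0.048, limma adjusted p = 0.627). Wwtr1 (chromosome 3, 57455649 to 57575910) had 92.9, 90.8, 84.9 and 83.1 FPKM in YKL-05-099 libraries, 72.9 FPKM in culture and 128, 118.8, 117.9 and 113.9 FPKM in vehicle libraries. Every treated library was below every vehicle library. The means were 87.9 ± 4.67 and 119.6 ± 5.94 FPKM (SD, n = 4 each), so the level in treated cells was 73.5% of that in vehicle cells (log2 fold change -0.44, SE 0.052, limma adjusted p = 0.000182). The pan-leukocyte covariate took the log2 fold change of Wwtr1 to -0.38, which no longer passed (limma adjusted p = 0.0559). Per kilobase, Wwtr1 was more abundant than Yap1 in all 9 libraries.

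The ratio between both coactivator transcripts was higher after treatment in fits without the covariate. The ratio of Yap1 to Wwtr1 FPKM was 0.375, 0.383, 0.419 and 0.453 in YKL-05-099 libraries, 0.460 in culture and 0.278, 0.291, 0.327 and 0.327 in vehicle libraries, with no overlap between the mouse groups. On the log2 scale the ratio was higher by 0.41 after treatment, -1.28 ± 0.123 against -1.69 ± 0.118 in vehicle libraries (SD, n = 4 each). An exact two-sided permutation test gave p = 0.0286, the smallest that 70 divisions of 8 libraries allow, and 0.0286 after Benjamini-Hochberg adjustment over 3 ratios. Tests of ratios used log2(FPKM + 1) of both genes, and the pan-leukocyte covariate entered none of them. With that covariate the log2 fold changes were -0.16 for Yap1 and -0.38 for Wwtr1.

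Tead1, the most abundant of the TEAD genes here, was slightly lower after treatment, in a call that depended on single libraries. Tead1 (chromosome 7, 112679318 to 112906807) had 23.5, 25.1, 25.99 and 25.88 FPKM in YKL-05-099 libraries, 42.5 FPKM in culture and 29.0, 28.7, 30.1 and 25.6 FPKM in vehicle libraries. Vehicle replicate 4 lay inside the treated range, and the log2 fold change was -0.17 (SE 0.0575, limma adjusted p = 0.0402). Leaving out any library other than vehicle replicate 4 ended the call, with limma adjusted p from 0.0512 to 0.108 in those 7 fits. Tead3 averaged 8.52 ± 1.02 FPKM in treated and 10.5 ± 1.34 FPKM in vehicle libraries (log2 fold change -0.28, limma adjusted p = 0.0445), and its call ended in 5 of the 8 fits that left out a library. Tead2 was not called (6.17 ± 0.905 and 6.71 ± 1.78 FPKM), and Tead4 stayed under 1 FPKM in the mice and did not pass the filter on low values. Together the 4 TEAD genes summed to 39.2 to 41.7 FPKM in treated libraries, 56.9 FPKM in culture and 40.4 to 51.7 FPKM in vehicle libraries. The share of Tead1 in this sum was 58.3 to 64.1%, 74.7% and 58.2 to 64.2%. Among the VGLL cofactors, which bind TEADs in competition with YAP, Vgll3 fell (16.03 ± 0.93 FPKM in treated and 19.9 ± 2.05 FPKM in vehicle libraries, log2 fold change -0.30, limma adjusted p = 0.00933) and Vgll4 was not called (60.95 ± 5.00 and 56.3 ± 4.09 FPKM). Under the covariate Vgll3 stood at -0.17 and did not pass.

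**Figure D3:**
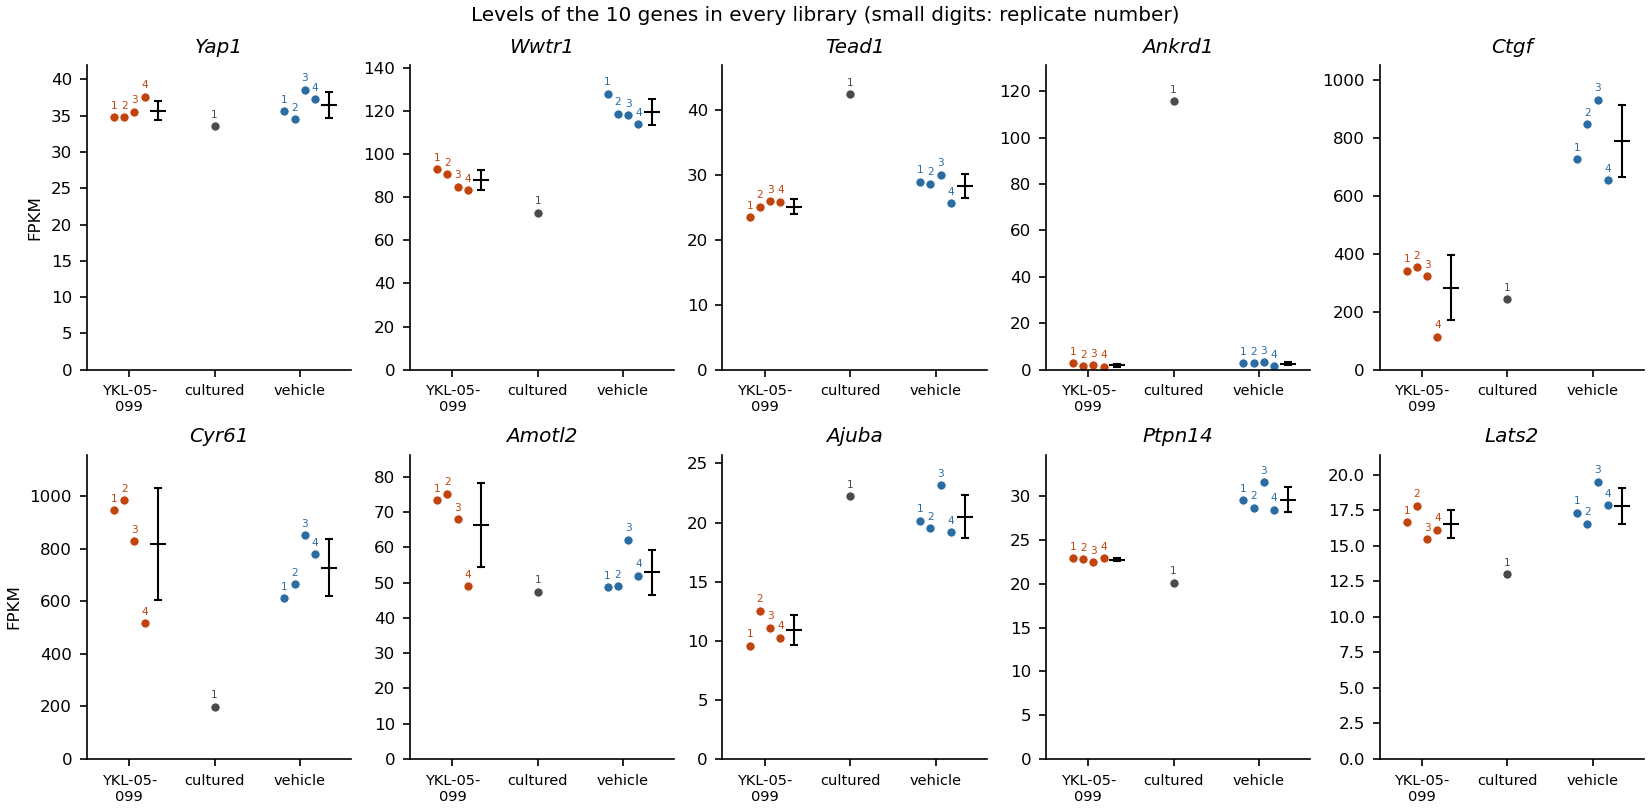
FPKM of the 10 genes in every library, with YKL-05-099 on the left, the cultured library in the middle and vehicle on the right; digits are replicate numbers, and black bars give the mean and SD of 4 libraries. Ctgf, Ajuba, Wwtr1 and Ptpn14 do not overlap between the mouse groups, YKL-05-099 replicate 4 is the lowest treated library for Ctgf, Cyr61 and Amotl2, and Ankrd1 is high in the cultured library.

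The classical target genes did not move together. CTGF and CYR61 are secreted matricellular proteins of the CCN family (now CCN2 and CCN1) that bind integrins and heparan sulfate. Ctgf (chromosome 10, 24595442 to 24598683) had 342, 354, 324 and 114 FPKM in YKL-05-099 libraries, 245 FPKM in culture and 727, 849, 934 and 656 FPKM in vehicle libraries. The highest treated library was below the lowest vehicle library. The means were 284 ± 113 and 791 ± 124 FPKM (SD, n = 4 each), so treated cells held 35.8% of the vehicle level (log2 fold change -1.59, SE 0.32, limma adjusted p = 0.00324). By mean level Ctgf ranked 225 of the 11788 genes tested in treated cells and 44 in vehicle cells. Cyr61 (chromosome 3, 145646976 to 145649981) had 946, 985, 831 and 516 FPKM in YKL-05-099 libraries, 199 FPKM in culture and 613, 666, 853 and 781 FPKM in vehicle libraries. Its groups overlapped, and it was not called (log2 fold change 0.14, 95% interval from -0.29 to 0.57, limma adjusted p = 0.584).

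YKL-05-099 replicate 4 was the lowest treated library for both CCN genes and had the lowest pan-leukocyte sum of the mouse libraries, 19.7 FPKM. Most of that sum came from Arhgdib (9.45 FPKM), Cytip (5.18 FPKM) and Ptpn6 (2.80 FPKM), which cultured tumor cells also held. Without it, the fold change of Ctgf on the log2 scale was -1.20 (SE 0.112, limma adjusted p = 0.000153) and Cyr61 passed as higher, at 0.35 (SE 0.116, limma adjusted p = 0.0429). In the covariate fit of all 8 libraries Ctgf had a log2 fold change of -0.75 (with SE 0.538, limma adjusted p = 0.438), which ended its call. The cultured value of Ctgf lay inside the treated range.

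The change of Ctgf relative to Cyr61 exceeded the spread between libraries. The ratio of Ctgf to Cyr61 FPKM was 0.361, 0.359, 0.390 and 0.222 in YKL-05-099 libraries, 1.23 in culture and 1.19, 1.27, 1.09 and 0.840 in vehicle libraries. The highest treated ratio was below the lowest vehicle ratio. On the log2 scale the means were -1.61 ± 0.369 and 0.12 ± 0.262, a difference of -1.73 (exact two-sided permutation p = 0.0286, the smallest possible, and 0.0286 adjusted over 3 ratios). Without YKL-05-099 replicate 4, or any other library in turn, the difference stayed between -1.86 and -1.55. The ratio was not fitted with the pan-leukocyte covariate, under which Ctgf stood at -0.75 and Cyr61 at 0.30, neither called.

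**Figure D4:**
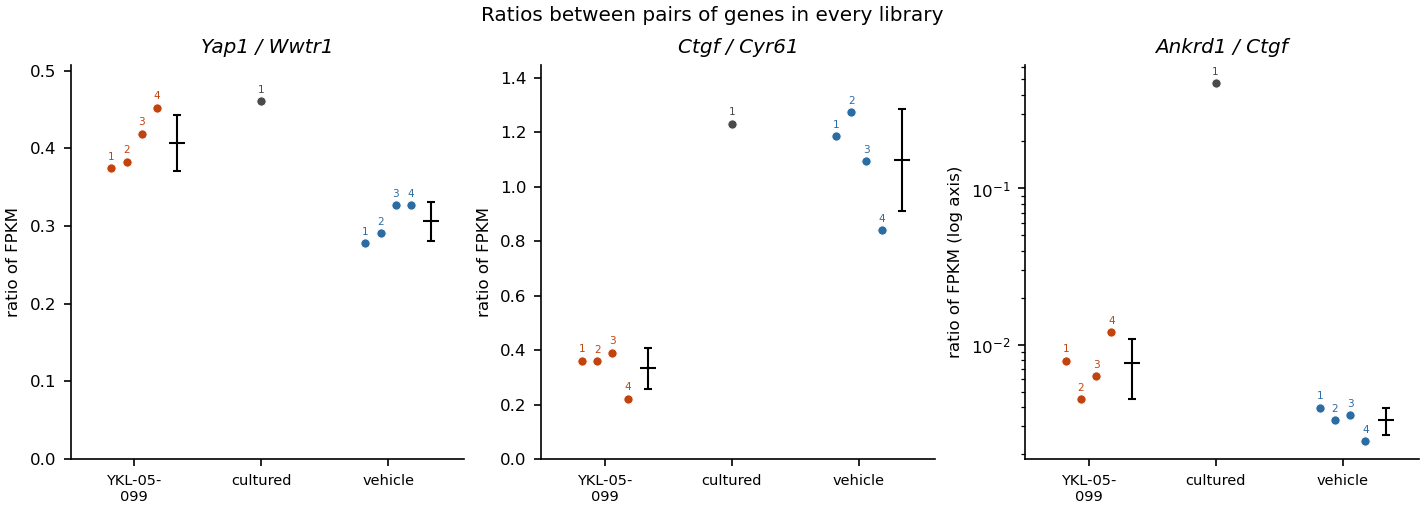
Ratio of FPKM between pairs of genes in every library, with the mean and SD of 4 libraries; the axis of the Ankrd1 to Ctgf panel is logarithmic. In the mice the Ctgf to Cyr61 ratio is 0.222 to 0.390 after YKL-05-099 and 0.840 to 1.27 after vehicle, and the cultured library has 1.23.

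Ankrd1, which encodes a nuclear and sarcomeric ankyrin repeat protein and is among the most used YAP reporter genes, was low in the mice. Ankrd1 (chromosome 19, 36111965 to 36119844) had 2.69, 1.58, 2.04 and 1.37 FPKM in YKL-05-099 libraries and 2.86, 2.78, 3.28 and 1.58 FPKM in vehicle libraries. The groups overlapped and it was not called (log2 fold change -0.31, 95% interval from -0.71 to 0.09, limma adjusted p = 0.189). Without vehicle replicate 4, the lowest of its group, it passed as lower at -0.46 (limma adjusted p = 0.0272). Relative to Ctgf, Ankrd1 was higher by 1.29 on the log2 scale after treatment (exact two-sided permutation p = 0.0286, the smallest possible, 0.0286 adjusted over 3 ratios). Leaving out any vehicle library took this p to 0.0571. Both genes had negative log2 fold changes, and that of Ctgf (-1.59) was the larger. Under the pan-leukocyte covariate, which did not enter the ratio, Ankrd1 stood at -0.15 and Ctgf at -0.75, neither called.

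The genes that feed back on the pathway divided into some that fell and others that were not called. Ajuba, a LIM-domain protein that binds and inhibits LATS kinases, was called lower in all 18 alternative fits. Ajuba (chromosome 14, 54567469 to 54577661) had 9.58, 12.5, 11.1 and 10.3 FPKM in YKL-05-099 libraries, 22.2 FPKM in culture and 20.1, 19.5, 23.2 and 19.2 FPKM in vehicle libraries. Treated cells held 53.1% of the vehicle level, 10.9 ± 1.27 against 20.5 ± 1.83 FPKM (SD, n = 4 each), with no overlap (log2 fold change -0.86, SE 0.0849, limma adjusted p = 6.87e-05). The covariate fit gave -0.74 (limma adjusted p = 0.0308). The cultured value lay inside the vehicle range and above every treated library.

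Ptpn14, a phosphatase that binds YAP and keeps it out of the nucleus, fell by a smaller and very even amount. Ptpn14 (chromosome 1, 189728268 to 189876695) had 22.9, 22.8, 22.5 and 22.9 FPKM in YKL-05-099 libraries, 20.1 FPKM in culture and 29.6, 28.7, 31.6 and 28.5 FPKM in vehicle libraries. The treated libraries varied by 0.911% (SD over mean), the least of the 10 genes, and all lay below the vehicle libraries. Treated cells held 76.9% of the vehicle level (log2 fold change -0.36, SE 0.0443, limma adjusted p = 0.000218, and -0.41 with adjusted p = 0.0270 under the pan-leukocyte covariate).

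Amotl2, an angiomotin family scaffold that binds YAP at junctions, leaned the other way without passing. Amotl2 (chromosome 9, 102716672 to 102733418) had 73.3, 75.2, 68.04 and 49.04 FPKM in YKL-05-099 libraries, 47.5 FPKM in culture and 48.7, 48.9, 62.2 and 51.9 FPKM in vehicle libraries. YKL-05-099 replicate 4 lay inside the vehicle range, and the other 3 treated libraries lay above it (log2 fold change 0.31, 95% interval from 0.02 to 0.60, limma adjusted p = 0.0808). Without that library Amotl2 passed as higher, at 0.45 (limma adjusted p = 0.0041), and without vehicle replicate 3, the highest of its group, it passed at 0.39 (limma adjusted p = 0.0463). Lats2 (chromosome 14, 57642077 to 57758388), which like Lats1 encodes a kinase that phosphorylates YAP and TAZ, had 16.7, 17.8, 15.5 and 16.1 FPKM in YKL-05-099 libraries, 13.0 FPKM in culture and 17.3, 16.6, 19.5 and 17.9 FPKM in vehicle libraries. The groups overlapped (log2 fold change -0.10, 95% interval from -0.24 to 0.04, limma adjusted p = 0.210). Lats1 was called lower, at 12.0 ± 0.556 FPKM in treated and 13.8 ± 0.553 FPKM in vehicle libraries (log2 fold change -0.19, limma adjusted p = 0.0137). It did not pass with the covariate (-0.16).

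A wider list of 22 YAP and TAZ target genes shares 6 genes with the 10 above (Ctgf, Cyr61, Ankrd1, Amotl2, Ptpn14 and Lats2) and held 21 tested members. Of these 9 fell and 3 rose, with a median log2 fold change of -0.31. The called share was 57.1% (42.9% lower and 14.3% higher), against 43.2% of all genes tested (15.1% lower and 28.0% higher). Igfbp3 did not pass the filter on low values. Beside Ctgf and Ptpn14, the called falls included Arhgef17, a RhoA exchange factor (17.6 ± 1.57 FPKM in treated and 26.6 ± 2.03 FPKM in vehicle libraries, log2 fold change -0.57, limma adjusted p = 0.000247), the receptor tyrosine kinase gene Axl (100.4 ± 3.39 and 127.6 ± 8.95 FPKM, -0.34) and Nuak2, a kinase that YAP induces and that acts on actomyosin (13.1 ± 1.04 and 19.4 ± 3.10 FPKM, -0.52). Tgfb2, a TGF-beta ligand (32.0 ± 1.89 and 47.7 ± 9.58 FPKM), Nt5e, the ecto-5'-nucleotidase CD73 (2.30 ± 0.05 and 4.77 ± 1.68 FPKM), and Fjx1 (0.725 ± 0.147 and 1.46 ± 0.102 FPKM) fell as well. Fjx1 was near the floor, with at most 0.842 FPKM in treated and at least 1.34 FPKM in vehicle libraries. It thus passed the filter on low values only through the vehicle group, and its call, among the 9, is not independent of that filter. The stress gene Gadd45a rose (54.9 ± 3.11 and 39.7 ± 4.70 FPKM, log2 fold change 0.46, limma adjusted p = 0.00164), as did the guanine nucleotide exchange factor gene Dock5 (10.7 ± 0.597 and 9.06 ± 0.483 FPKM, 0.22). In the covariate fit 4 of the 21 passed: Arhgef17, Nuak2 and Ptpn14 as lower and Gadd45a as higher. That fit called 755 of all 11788 genes tested.

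**Figure D5:**
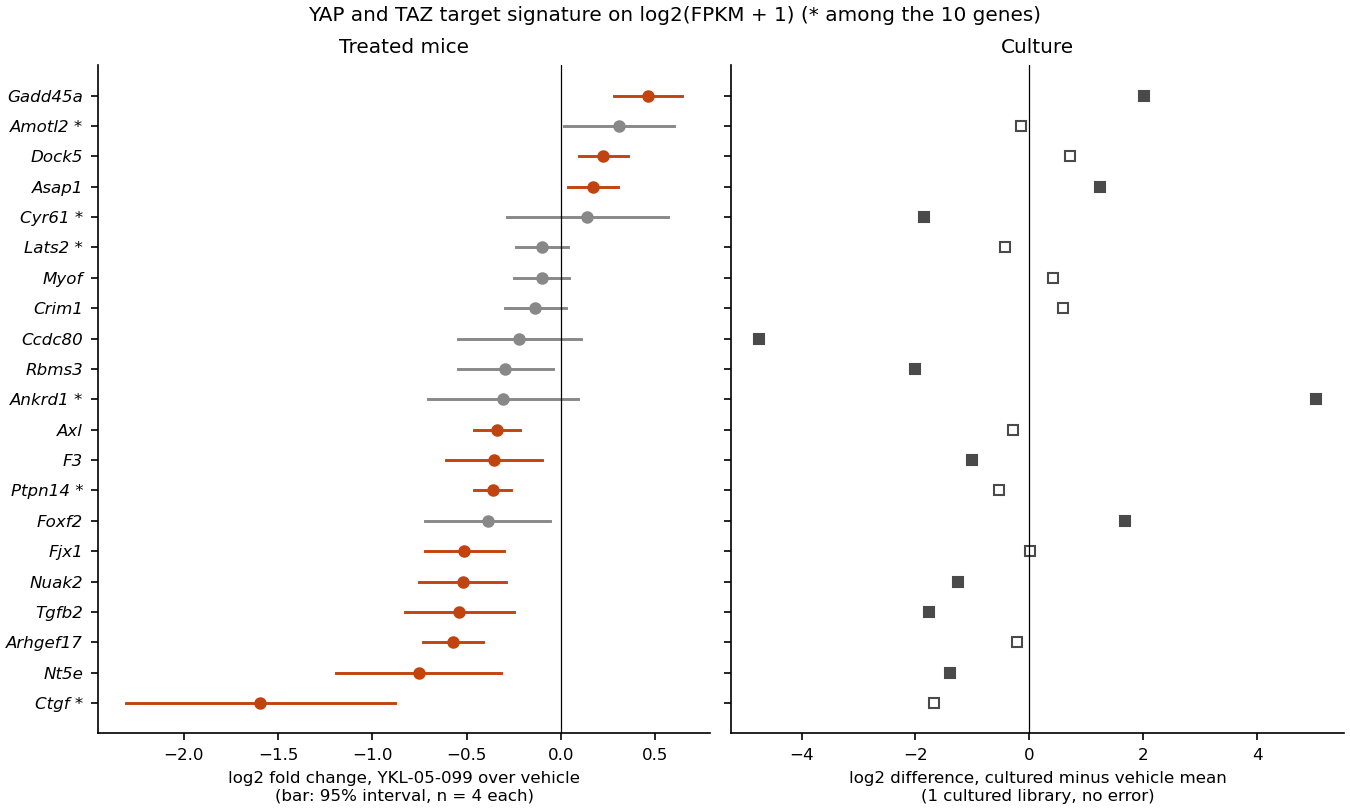
The 21 tested genes of the target list on log2(FPKM + 1). Left, fold change of YKL-05-099 over vehicle with its 95% interval, red where the limma adjusted p was under 0.05; right, the cultured library minus the vehicle mean, with no error, filled where the gene stood apart (beyond the mouse libraries and 1 log2 unit or more from the vehicle mean). After treatment 9 fell and 3 rose; in culture 4 stood apart above and 7 below, with Ankrd1 farthest above and Ccdc80 farthest below.

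Transcripts of the Hippo kinase cascade and its adaptors were lower or not called, with few exceptions. Of 30 listed genes 27 were tested, 10 fell and 2 rose, and the median log2 fold change was -0.09. The called share, 44.4%, was near the 43.2% of all genes, with 37.0% lower against 15.1% of all genes and 7.41% higher against 28.0%. Ajuba and Ptpn14, described above, are 2 of the 10 that fell. Mob1b, an adaptor that activates LATS kinases, fell to 12.8 ± 0.368 FPKM in treated libraries, against 19.95 ± 0.783 FPKM in vehicle libraries (log2 fold change -0.60, limma adjusted p = 1.91e-05), and the related Mob1a by a smaller amount (42.9 ± 2.41 and 49.4 ± 2.29 FPKM). Frmd6, a FERM-domain regulator upstream of the cascade, fell to 6.46 ± 0.555 FPKM, against 10.8 ± 0.536 FPKM in vehicle libraries (log2 fold change -0.66). The kinase genes Map4k4 (109.8 ± 1.88 and 142.3 ± 16.5 FPKM) and Taok3 (14.4 ± 0.276 and 17.8 ± 0.847 FPKM) fell, and so did Strn3 (19.97 ± 0.298 and 24.04 ± 0.751 FPKM), a regulatory subunit of the STRIPAK phosphatase complex. The kinase gene Taok2 rose (18.6 ± 0.498 and 13.2 ± 1.31 FPKM, log2 fold change 0.47, limma adjusted p = 0.000496). Of the 27 genes, 6 passed with the covariate, all lower, where 755 of all 11788 genes tested passed. Taok2 did not pass (log2 fold change 0.28). Sav1, through which salt-inducible kinases act in the fly, had 25.5 ± 0.95 FPKM in treated and 27.6 ± 0.857 FPKM in vehicle libraries (log2 fold change -0.11, limma adjusted p = 0.0600).

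Actin genes controlled by SRF and its MRTF coactivators, a program that shares targets such as Ctgf with YAP, were listed as well. The list also includes the genes for SRF and the MRTFs themselves, none of which was called. Of 19 tested 8 fell and 2 rose, with a median log2 fold change of -0.14. That is 52.6% called (42.1% lower and 10.5% higher), against 43.2% of all genes tested (15.1% lower and 28.0% higher). Myl9, a myosin light chain, fell to 55.7 ± 4.68 FPKM in treated libraries, against 82.1 ± 5.87 FPKM in vehicle libraries (log2 fold change -0.55, limma adjusted p = 0.000274), and stood at 0.415 FPKM in culture. The focal adhesion genes Vcl (95.3 ± 2.67 and 126.0 ± 9.29 FPKM) and Zyx (201.8 ± 7.70 and 282.6 ± 31.0 FPKM) fell, while Filip1l rose (51.4 ± 4.58 and 37.5 ± 1.41 FPKM). Under the covariate Vcl (-0.31) and Zyx (-0.28) no longer passed. Of the 19 tested genes, only Myl9 (-0.78, limma adjusted p = 0.00580) and Filip1l (0.58, limma adjusted p = 0.0236) still did.

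The cultured library showed a different order of the target genes. Since it has no replicate, a gene was said to stand apart if its cultured level was above or below all 8 mouse libraries and differed from the vehicle mean by 1 log2 unit or more on log2(FPKM + 1). By this rule 2 of the 10 genes stood apart, Ankrd1 above and Cyr61 below, where 9.62% of 12296 genes stood apart above and 10.6% below (20.2% in all). Ankrd1 was at 116 FPKM in culture and at 1.37 to 3.28 FPKM in the mice, 44.1 times its vehicle mean, and ranked 679 of the 11788 genes tested in culture and 10332 in vehicle cells. Cyr61, at 199 FPKM, held 27.3% of its vehicle mean. Ctgf held 30.9% of its vehicle mean but lay inside the range of the mouse libraries because of YKL-05-099 replicate 4. The ratio of Ankrd1 to Ctgf was 0.473 in culture and 0.00241 to 0.00393 in vehicle libraries.

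The remaining 7 genes differed from the vehicle mean by under 1 log2 unit. Tead1 was higher in culture than in any mouse library, at 150% of its vehicle mean, whereas Wwtr1 (60.9%), Ptpn14 (68.05%), Lats2 (73.0%), Yap1 (91.9%) and Amotl2 (89.7%) were below every mouse library. Ajuba was at 108% of its vehicle mean. Relative to the vehicle mean, the cultured and the treated cells thus both held less Ctgf, Wwtr1 and Ptpn14, but these comparisons share the vehicle libraries. In the target list of 22 genes, 4 stood apart above in culture (Ankrd1, Gadd45a, Foxf2 and Asap1) and 7 below, Ccdc80, Rbms3, Cyr61 and Tgfb2 among them. Ccdc80 was at 1.56 FPKM in culture and 69.0 ± 16.3 FPKM in vehicle libraries, and Foxf2 at 12.7 FPKM and 3.35 ± 1.14 FPKM. In the Hippo list Wwc1 and Amotl1 stood apart above and Taok3 below. Foxf2, Asap1, Ccdc80, Rbms3, Wwc1, Amotl1, Sav1 and Lats1 were named after their values were seen.

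Genes with the most similar profile were found by the root mean square difference over the 9 libraries of log2(FPKM + 1) minus the vehicle mean. For Ctgf these were Spry4, a feedback inhibitor of receptor tyrosine kinase signaling (difference 0.41 log2 units), the fatty acid transporter gene Cd36 (0.44) and the calcineurin regulator gene Rcan1 (0.44). Spry4 had 3.16 ± 0.931 FPKM in treated libraries, 3.49 FPKM in culture and 9.34 ± 1.24 FPKM in vehicle libraries. Cd36 was near the floor, with 0.374 ± 0.328 FPKM in treated libraries, 0.0273 FPKM in culture and 3.44 ± 1.47 FPKM in vehicle libraries. For Ajuba the nearest were the RAS family gene Rras2 (0.13), the cytokine signaling suppressor gene Socs5 (0.15) and Skil, a SMAD corepressor (0.16). Rras2 had 51.3 ± 1.77 FPKM in treated libraries, 99.6 FPKM in culture and 93.3 ± 4.65 FPKM in vehicle libraries, so it was lower after treatment and close to its vehicle level in culture, as Ajuba was. For Yap1, which varied little, the nearest were Tgs1 (0.03), Gps1 (0.04) and Athl1 (0.04), none of which was called.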

How the data were processed

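RNA was measured by stranded poly(A) sequencing in 9 libraries. The authors deposited 1 FPKM value, and a status for it, for every gene in each library, per the file headers. Tool and build in the submitters' processing notes are bcl2fastq 2.19 and GRCm38; aligner and quantifier: not given in the sources used here. Of 48302 rows, 65 with a repeated gene identifier and 7 genes with a failed estimate were left out. Groups and replicate numbers came from the sample titles. Whole reads could not be recovered; low values of 4255 single-transcript genes of known length pointed to about 24000000 to 35000000 fragments in a library, an approximation that gives no interval for a gene.

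Genes reaching 1 FPKM in 4 or more mouse libraries were tested on log2(FPKM + 1) by limma 3.58.1 (R 4.3.3), with a mean-variance trend and no block. Fold changes on that scale understate the change of low genes. P-values were adjusted by Benjamini-Hochberg over all 11788 genes and called under 0.05; the fit was tested on simulated data. Ratios used exact permutation tests. Alternatives were pseudocounts of 0.1 and 0.5, no filter, a minimum mean of 5 FPKM, scaling by TPM, quantiles or median of ratios, all 9 libraries, a pan-leukocyte covariate, a replicate block and leaving out each library. The 10 genes and the lists were chosen with earlier results of these data known. Named were the 10 genes, the TEAD and VGLL genes, up to 8 list members with the smallest p (for the actin list the first 4), and the 3 nearest profiles of Ctgf, Yap1 and Ajuba; exceptions are marked, and 1 gene that the rule names is not reported here. Promoters are from RefSeq (GRCm38.p6). Gene positions come from the deposited table (GRCm38) and count from 1.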

Additional observations from a re-analysis of the deposited data

Results flagged for a closer look

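The level of Ctgf in YKL-05-099 replicate 4, 114 FPKM, lay far from the other 3 treated libraries, which had 324, 342 and 354 FPKM. Its gap to the nearest of them was 0.876 of the whole range of the group, above Dixon's 95% critical value for 4 libraries. Over 43 named genes in both mouse groups 86 groups were examined and 1 was marked in this way, where chance marks about 1 in 20. The same library was the lowest treated library for Cyr61 (516 FPKM) and Amotl2 (49.04 FPKM), and had 19.7 FPKM of summed pan-leukocyte markers, where the other treated libraries had 22.3 to 36.1 FPKM. The part of these markers in the low value was not tested.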

How the results depend on the processing

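Ajuba and Ptpn14 were called lower under all 18 alternatives, with log2 fold changes from -0.92 to -0.74 and from -0.41 to -0.33. Wwtr1 and Ctgf were called lower under 17, the exception being the pan-leukocyte covariate, and ranged from -0.49 to -0.38 and from -1.74 to -0.75. Tead1 was called under 7 of 18. Cyr61, Amotl2 and Ankrd1 kept their direction throughout. With the pan-leukocyte covariate, whose values do not overlap between the groups, 755 of 11788 genes, 2 of the 10 genes, 4 of 21 target genes and 6 of 27 Hippo genes were called, against 5089, 5, 12 and 12 without it. Leaving out 1 library gave 4 to 6 of the 10 genes and a log2 difference from 0.99 to 1.49 for Ankrd1 over Ctgf. After quantile scaling 51.0% of all calls were higher. Sign changed for 3 genes that were not called: Tead2 ranged from -0.234 to 0.0400 and Tgs1 from -0.0568 to 0.00498 when 1 library was left out, and Gps1 from -0.0243 to 0.0166, with 0.00869 after TPM scaling. The cause of these changes was not tested.

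Same-numbered libraries did not deviate together in every pair (correlations of deviations from the group means over 11788 genes of -0.02, 0.13, -0.05 and 0.17), and 1 of 4 treated libraries correlated best with its own number. With a replicate block 4830 genes and 4 of the 10 were called. For the ratios, exchanging values within numbers allows no p under 0.125, which all 3 reached (0.41, -1.73 and 1.29). Depth is known only roughly, so no counting interval could be given, and the single cultured library carries no error.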
